A study of Rattus norvegicus with 16 samples.

Results

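The activity-induced synaptic and signalling effectors are 10 genes that neurons transcribe within minutes to hours of synaptic activity and that lie outside the Fos, Jun, Egr and Nr4a families of transcription factors. They are Arc, Npas4, Inhba, Ptgs2, Nptx2, Plk2, Ier2, Sik1, Per1 and Crem. They were chosen by name: every array probe whose gene name is a member was taken, which gave 14 probes, and all 10 genes were among the 22964 genes tested. Of the 14 probes 13 passed the filter on dim probes. The tested probes of 8 members were well above the local background in all 16 samples. That of Ptgs2 was well above it in all but 1 overexpression sample. That of Npas4 was well above it only in the 4 nontargeting samples, so Npas4 passed the filter through that group alone.

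The samples were primary cultures of rat hippocampal neurons from Sprague-Dawley embryos of embryonic day 18 to 19, of either sex. The 4 groups of 4 samples were cultures that received no virus (NO), cultures transduced with a lentivirus carrying a short hairpin RNA (shRNA) that has no target (nontargeting, NT), cultures transduced with a lentivirus whose shRNA targets the coding region of PRR7 (knockdown, KD), and cultures transduced with a lentivirus that overexpresses full-length PRR7 (overexpression, OE). PRR7 is a proline-rich transmembrane protein of synapses, and the series asks how it bears on the transcription factor c-Jun in neurons. The shRNA vectors were built on pTRIP and the overexpression vector on FUGW. The promoters of the inserts and the age of the cultures at harvest are not given in the sources used here, and an empty overexpression virus was not analysed here. No probe carried the name Prr7, so the knockdown and the overexpression could not be checked at the transcript. The samples are named biological replicates, but nothing says that they came from separate dissections, and p-values then measure only the spread between these samples. A free-text label field describes adult brain of hormone-treated animals, which contradicts the culture protocol, and it was not used.

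RNA was hybridised to 8 Agilent 2-colour rat arrays of 60-base probes, each holding 2 samples of the same group. Replicates 1 and 3 of every group were labelled with Cy3, and replicates 2 and 4 with Cy5. A slide held the knockdown and nontargeting arrays, and a second slide those of the overexpression and no virus groups. These are the pairs that a slide joins, and any difference between a group of the first slide and a group of the second may be of the slide or of the group, which cannot be told apart. Between 49.2% and 69.6% of the transcript probes were well above background in a sample, and the number of arrays limits the precision. In RNA from whole cultures, fewer cells of a type and less RNA per cell cannot be told apart. All 9 neuron markers on the array were well above background in all 16 samples, as were 9 of 9 astrocyte markers. Of 9 microglial markers 4 were well above background in all 16 samples and 3 (Aif1, Cx3cr1 and Itgam) in none, and of 10 fibroblast and vascular markers 3 were in all and 2 (Lum and Pecam1) in none.

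When synaptic activity lets calcium into a neuron, kinases carry the signal to the nucleus, where CREB bound to the cAMP response element (CRE) and other prebound factors switch on immediate early genes without new protein synthesis. The members are products of that response that act outside the nucleus as well as in it. Arc removes AMPA-type glutamate receptors from synapses, Nptx2 is a secreted pentraxin that clusters them, and Plk2 is a kinase that acts in homeostatic weakening of overactive synapses. Inhba encodes the subunit of the secreted ligand activin A, and Ptgs2 is cyclooxygenase-2, which starts prostaglandin synthesis. Npas4 is a neuronal transcription factor induced by calcium. Sik1 is a kinase that restrains the coactivators of CREB, and Crem belongs to the CREB family and can give rise to a short repressor. Per1 is a repressor of the circadian clock that is also induced acutely, and Ier2 is a small nuclear protein.

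Of the 10 members 6 were lower in the knockdown cultures than in the nontargeting cultures (11% of all genes tested were). Sik1 was 5.13-fold lower, Inhba 3.29-fold, Arc 1.89-fold, Ptgs2 1.88-fold and Crem 1.55-fold. Npas4 read 1.80-fold lower with the normalization used here, at knockdown values that were not well above background. It entered the test through the nontargeting group alone and had to differ from the rest. No member was higher in the knockdown (10.4% of all genes were). Against cultures without virus the nontargeting cultures had higher Arc, Npas4, Inhba, Ptgs2, Nptx2 and Sik1 (6 members, against 11.5% of all genes) and lower Ier2 (1 member, against 11%). Between overexpression and no virus no member passed the test, and of all genes 0.00435% did.

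**Figure D1:**
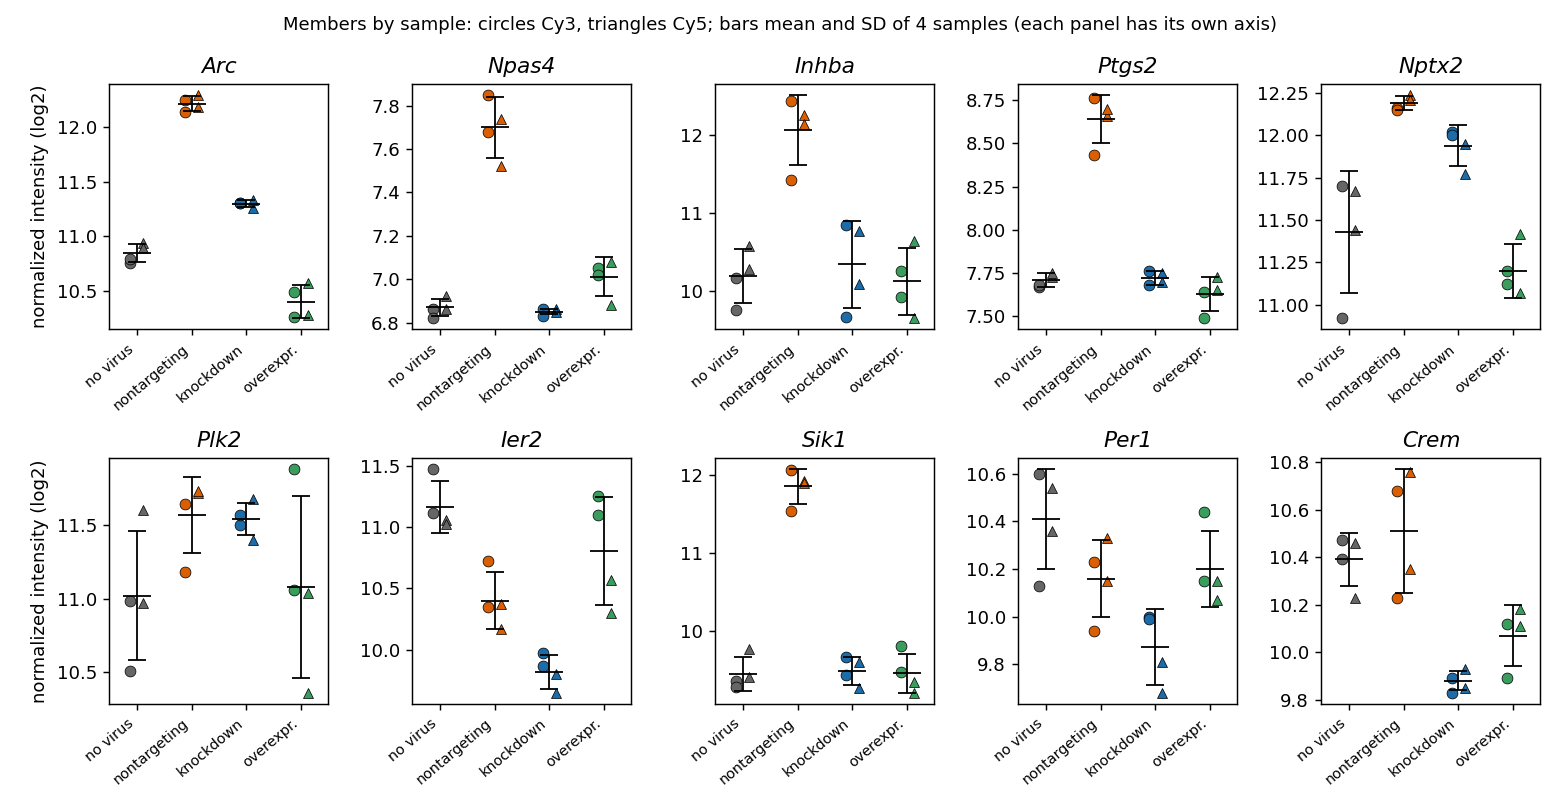
Normalized log2 intensity (vertical axis, a separate range in each panel) of the tested probe of each member in the 4 groups (horizontal axis), with a point for each sample, circles for Cy3 and triangles for Cy5, and a bar for the mean and SD of the 4 samples. In the panels of Arc, Npas4, Inhba, Ptgs2, Nptx2 and Sik1 all 4 nontargeting samples lie above the 12 samples of the other groups, as between 11.54 and 12.06 for Sik1 against 9.21 to 9.8. Npas4 entered the test through the nontargeting group alone. The share of all genes with this pattern was not counted.

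Differences below are of group means on the log2 scale from a single limma fit of all 16 samples, with the dye as a term and the array as a random block. Adjusted p-values are two-sided limma p-values after Benjamini-Hochberg adjustment over the 22964 genes of a comparison, and a gene passed the test, or was called, where the value was under 0.05. Levels are log2 normalized intensities, which compare samples for the same probe and do not rank genes.

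RefSeq promoter windows were found for 9 of the 10 members, all but Arc, and 5 of the 11 windows are shown, the 4 with the full CRE, the letters to which CREB binds, and that of Sik1, which holds 2 cores. They belong to members that were lower in knockdown than in nontargeting (Sik1, Crem) and to members that did not pass in that comparison (Plk2, Ier2). Crem window 1 also holds 2 cores, 241 to 237 and 6 to 2 bases before its start. The Nptx2 window holds a single core. Neither of these windows is shown. Each is the 250 bases before an annotated transcript start on the rat assembly GRCr8, 5′ to 3′ on the gene's strand, and the 3 windows of Crem are numbered along it. Capitals mark the CRE core TGACG or its reverse complement. Where 2 cores overlap on opposite strands they spell the full palindrome TGACGTCA.
Sik1 promoter window, chr20:9958647-9958896, minus strand: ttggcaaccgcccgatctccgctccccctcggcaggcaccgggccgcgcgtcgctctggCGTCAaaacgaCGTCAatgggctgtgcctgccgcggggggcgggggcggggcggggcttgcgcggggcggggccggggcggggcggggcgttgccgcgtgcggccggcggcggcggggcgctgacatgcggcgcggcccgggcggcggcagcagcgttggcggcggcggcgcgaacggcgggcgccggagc
Crem promoter window 2, chr17:58984547-58984796, plus strand: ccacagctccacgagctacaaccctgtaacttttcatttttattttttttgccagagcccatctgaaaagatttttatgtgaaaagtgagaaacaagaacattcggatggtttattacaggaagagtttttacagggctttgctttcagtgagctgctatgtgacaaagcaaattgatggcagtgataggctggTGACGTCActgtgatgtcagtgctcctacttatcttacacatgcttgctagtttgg
Crem promoter window 3, chr17:58985240-58985489, plus strand: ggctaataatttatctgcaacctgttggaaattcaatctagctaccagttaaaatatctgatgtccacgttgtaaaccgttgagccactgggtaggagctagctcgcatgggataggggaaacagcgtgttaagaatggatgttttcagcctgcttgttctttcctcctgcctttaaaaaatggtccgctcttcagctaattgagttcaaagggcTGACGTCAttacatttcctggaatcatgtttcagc
Ier2 promoter window, chr19:40399123-40399372, plus strand: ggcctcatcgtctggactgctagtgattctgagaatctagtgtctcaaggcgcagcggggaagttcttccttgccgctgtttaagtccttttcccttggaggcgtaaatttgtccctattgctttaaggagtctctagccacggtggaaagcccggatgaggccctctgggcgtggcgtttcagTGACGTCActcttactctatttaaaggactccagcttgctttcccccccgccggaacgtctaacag
Plk2 promoter window, chr2:43702286-43702535, plus strand: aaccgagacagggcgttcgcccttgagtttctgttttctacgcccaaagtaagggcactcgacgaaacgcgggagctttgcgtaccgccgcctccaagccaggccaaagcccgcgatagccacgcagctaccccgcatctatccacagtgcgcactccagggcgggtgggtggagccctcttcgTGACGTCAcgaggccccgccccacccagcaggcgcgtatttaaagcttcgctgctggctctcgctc
The full palindrome was present in 4 of the 11 windows, those of Plk2 and Ier2 and windows 2 and 3 of Crem, against 1.59% of all 33469 windows of the same length in the table. It lay 66 to 59 bases before the start in Plk2 and in Ier2, and 56 to 49 and 35 to 28 bases before the starts of Crem windows 2 and 3. The core alone was present in 7 of the 11 windows, from 5 genes (Crem, Ier2, Nptx2, Plk2 and Sik1), against 18.2% of all windows, and every full CRE also counts as a core. The 2 cores of Sik1 lay 191 to 187 and 180 to 176 bases before the start. Both strands were searched for each motif. The E-box CACGTG was found in the Ptgs2 window and in 5.59% of all windows, and the TATA box TATAAA in the Inhba window and in 12.9%. The AP-1 site TGANTCA, the CArG box and the MEF2 site were in none of the 11 windows and in 6.34%, 1.5% and 2.96% of all windows. Matches are a description of these letters, not of binding.

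Sik1 had the largest difference between knockdown and nontargeting of the 10 members. Its levels were 12.06, 11.92, 11.54 and 11.89 in the nontargeting samples and 9.43, 9.27, 9.67 and 9.60 in the knockdown samples, in the order of replicates 1 to 4. The no virus samples lay at 9.36, 9.41, 9.28 and 9.77, and the overexpression samples at 9.80, 9.35, 9.47 and 9.21. The nontargeting samples are thus alone above the other 12, which overlap. Knockdown differed from nontargeting by -2.36 (SE 0.23, 95% interval -2.86 to -1.86, adjusted p = 5.78e-06, limma). The knockdown level was within 0.04 (SE 0.23) of the no virus level, with a 95% interval of -0.46 to 0.54 (adjusted p = 0.947, limma), across slides. The difference was -0.44 when the samples were aligned on their medians after loess with no quantile step, where the median of all genes was -0.28.

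The secreted ligand gene Inhba followed with the next largest fall. Its probe lies in the coding sequence, on the minus strand of chr17:57244604-57244663 in the rn4 build that the array annotation uses.
Inhba probe A_44_P459144: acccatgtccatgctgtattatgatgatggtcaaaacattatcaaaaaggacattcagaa
Inhba levels were 12.43, 12.25, 11.42 and 12.14 in the nontargeting samples and 10.84, 10.77, 9.67 and 10.09 in the knockdown samples. They were 10.17, 10.28, 9.76 and 10.57 without virus and 10.26, 10.64, 9.92 and 9.65 with overexpression. The nontargeting samples lie above all others, and the samples of every group spread widely, with SDs of 0.56 (KD), 0.45 (NT), 0.43 (OE) and 0.34 (NO). The difference between knockdown and nontargeting was -1.72 (SE 0.36, 95% interval -2.48 to -0.95, adjusted p = 0.003, limma). With the Cy3 samples alone it was -1.67 with an adjusted p of 0.0583 (limma).

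The 4 groups of Arc did not overlap. Its nontargeting samples were at 12.25, 12.30, 12.14 and 12.19 and its knockdown samples at 11.31, 11.26, 11.31 and 11.33. The no virus samples were at 10.76, 10.94, 10.79 and 10.89 and the overexpression samples at 10.49, 10.57, 10.26 and 10.28. From high to low the order is nontargeting, knockdown, no virus and overexpression. Knockdown was lower than nontargeting (-0.92, SE 0.1, adjusted p = 1.4e-05, limma). Knockdown was higher than no virus by 0.46 (SE 0.1, adjusted p = 0.00983, limma), across slides; the difference was -0.21, the opposite sign, when the samples were aligned on their medians after loess with no quantile step. Overexpression and no virus, neighbours on the same slide, differed by -0.45 (SE 0.1, 95% interval -0.66 to -0.23), with an unadjusted p of 0.00047 and an adjusted p of 0.628 (limma).

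Ptgs2 levels were 8.43, 8.66, 8.76 and 8.70 in the nontargeting samples, against 7.68, 7.75, 7.76 and 7.70 with knockdown. They were 7.67, 7.73, 7.68 and 7.75 without virus and 7.64, 7.73, 7.49 and 7.65 with overexpression. Again the nontargeting samples stand alone and the other 12 samples overlap. Knockdown differed from nontargeting by -0.91 (SE 0.11, adjusted p = 2.26e-05, limma). The other Ptgs2 probe was not well above background in any sample and has no test.

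Npas4 could be measured in the nontargeting samples only, by a probe in the coding sequence on the minus strand of rn4 chr1:207598909-207598968.
Npas4 probe A_44_P512806: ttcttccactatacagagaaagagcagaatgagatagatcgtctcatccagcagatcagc
Its levels there were 7.85, 7.74, 7.68 and 7.52. The measured values elsewhere, none well above background, were 6.83 to 6.86 with knockdown, 6.82 to 6.92 without virus and 6.88 to 7.08 with overexpression. Other groups were set at the higher of the probe's own signal and the lowest signal of any probe well above background. The nontargeting level was then 1.80-fold that of knockdown, 1.73-fold that of no virus and 1.61-fold that of overexpression. A Ptgs2 value of 7.49 (overexpression replicate 3) was not well above background, so these folds are not lower bounds. They hold for the normalization used here. The measured difference of knockdown from nontargeting was -0.85 (adjusted p = 3.51e-05, limma), and -0.59 with samples aligned on their medians (adjusted p = 0.0508, limma). Npas4 entered the test through the group where it is high and had to differ from the rest, and without it 5 of 9 members were lower.

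Crem had 3 probes, all on the plus strand of chromosome 17, and the coding one lies at rn4 chr17:62830680-62830739.
Crem probe A_44_P372529: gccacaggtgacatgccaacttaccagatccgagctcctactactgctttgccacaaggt
The other probes lie further along the same strand, at chr17:62836088-62836147 (the tested, brightest probe) and chr17:62837437-62837496. The tested probe read 10.68, 10.76, 10.23 and 10.35 in the nontargeting samples and 9.83, 9.85, 9.89 and 9.93 in the knockdown samples. It read 10.39, 10.46, 10.47 and 10.23 without virus and 9.89, 10.11, 10.12 and 10.18 with overexpression. The knockdown samples lie below all nontargeting and all no virus samples, and the nontargeting and no virus samples overlap. Knockdown differed from nontargeting by -0.63 with the tested probe (SE 0.14, adjusted p = 0.00475, limma), by -0.66 with the coding probe and by -1.32 with the probe furthest along. The coding probe and the probe furthest along were also higher in nontargeting than in no virus cultures, by 0.45 and 0.51 (adjusted p = 0.0216 and 0.0202, limma over probes), whereas the tested probe gave 0.12 (adjusted p = 0.585). The drop of the probe furthest along differed from that of the tested probe by -0.69 and from that of the coding probe by -0.66, with the within-sample probe differences of the groups not overlapping. An exact two-sided permutation test gave p = 0.0286 for each, the smallest possible, and 0.0572 after adjustment over the 8 probe comparisons made in Crem and Nptx2. With the deposited log2 values and with the Cy3 samples alone the tested Crem probe no longer passed between knockdown and nontargeting (-0.44, adjusted p = 0.157, and -0.59, adjusted p = 0.0808, limma).

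**Figure D2:**
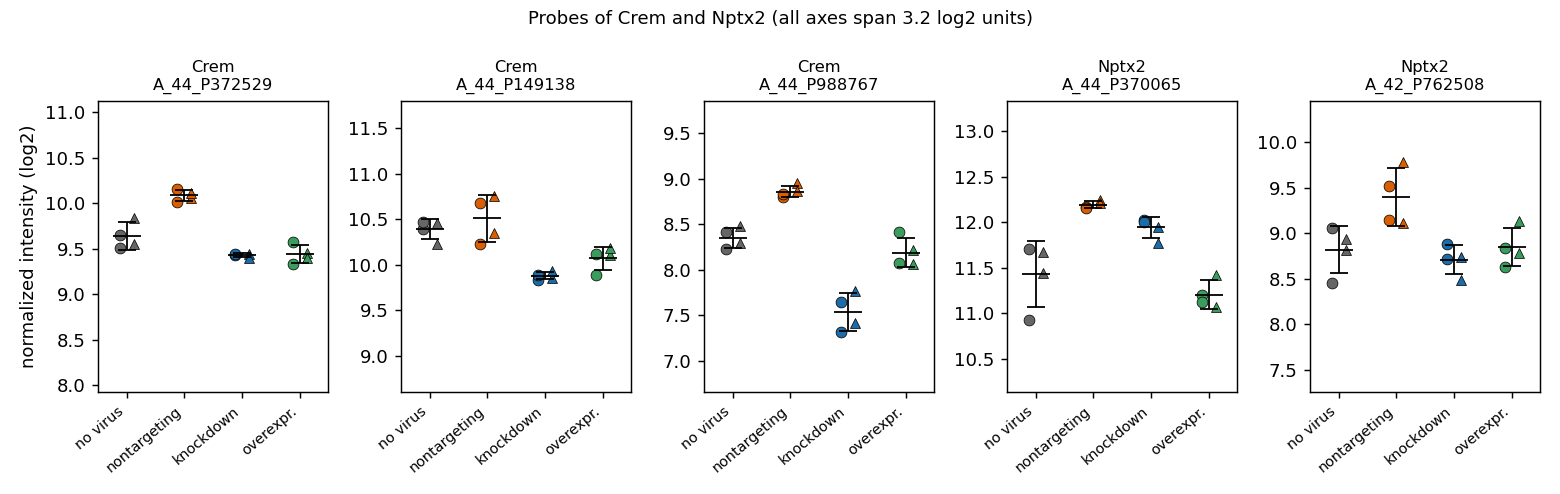
Normalized log2 intensity (vertical axis, the same span in each panel) by group (horizontal axis) for 3 Crem probes and 2 Nptx2 probes, with a point for each sample, circles for Cy3 and triangles for Cy5, and a bar for the mean and SD of 4 samples. The knockdown samples of the Crem probe in the third panel lie at 7.32 to 7.77, below its nontargeting samples at 8.8 to 8.95.

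Nptx2 was read by 2 probes, which gave different calls. The tested, brighter probe gave 12.16, 12.24, 12.15 and 12.21 with the nontargeting hairpin and 12.02, 11.95, 12 and 11.77 with knockdown. It gave 11.70, 11.67, 10.92 and 11.44 without virus and 11.20, 11.42, 11.12 and 11.07 with overexpression. All nontargeting samples lie above all knockdown samples, but by a difference of -0.25 (SE 0.19) that did not pass (adjusted p = 0.407, limma). Nontargeting exceeded no virus by 0.76 (SE 0.19, adjusted p = 0.0115, limma), a call lost with the Cy3 samples alone (adjusted p = 0.0626) and with samples aligned on their medians (adjusted p = 0.323). The dimmer probe lies in the coding sequence, on the minus strand of rn4 chr12:10359854-10359913.
Nptx2 probe A_42_P762508: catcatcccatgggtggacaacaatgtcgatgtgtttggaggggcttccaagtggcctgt
With that probe the knockdown difference from nontargeting was -0.69 (SE 0.23, adjusted p = 0.0419, limma over probes) and the nontargeting difference from no virus 0.58 (SE 0.23, adjusted p = 0.0817). The difference between the probes' differences was -0.44, with an exact two-sided permutation p of 0.0286 and 0.0572 after adjustment. This test too took samples that shared an array as independent.

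Ier2 ran in another order. Its levels were 11.11, 11.06, 11.47 and 11.02 without virus and 10.72, 10.37, 10.35 and 10.17 with the nontargeting hairpin. They were 9.87, 9.65, 9.97 and 9.80 with knockdown and 11.25, 10.57, 11.10 and 10.30 with overexpression. Both hairpin groups lie below every no virus sample, with the knockdown samples below the nontargeting ones, and the overexpression samples span nontargeting and no virus values. Nontargeting was lower than no virus (-0.76, SE 0.2, adjusted p = 0.0136, limma) and knockdown lower than no virus (-1.34, SE 0.2, adjusted p = 0.000724, limma). The difference of -0.58 (SE 0.2) between knockdown and nontargeting missed the threshold (adjusted p = 0.0514, limma). It passed in 12 of 32 other settings, among them the fit with the replicate number as a block (adjusted p = 0.0459).

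Per1 and Plk2 passed in none of the 6 comparisons. Per1 was at 10.13, 10.36, 10.60 and 10.54 without virus, 9.94, 10.15, 10.23 and 10.33 with the nontargeting hairpin, 10.15, 10.07, 10.44 and 10.15 with overexpression, and 10, 9.68, 9.99 and 9.81 with knockdown. The knockdown samples lie below all no virus samples and overlap the nontargeting ones. The difference from no virus was -0.54 (SE 0.18, adjusted p = 0.0694, limma), which passed in 8 of 32 other settings. Among these were the fit with the replicate number as a block (-0.54, adjusted p = 0.036, limma) and the samples aligned on their medians (-1.11, adjusted p = 0.0189). Plk2 was at 11.64, 11.72, 11.18 and 11.73 (nontargeting), 11.50, 11.40, 11.57 and 11.68 (knockdown), 10.51, 10.97, 10.98 and 11.60 (no virus) and 11.06, 10.36, 11.88 and 11.04 (overexpression). Every pair of Plk2 groups overlaps, and its overexpression samples ran from 10.36 to 11.88. The 95% interval of knockdown minus nontargeting, -0.89 to 0.84, leaves room for a change in either direction.

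**Figure D3:**
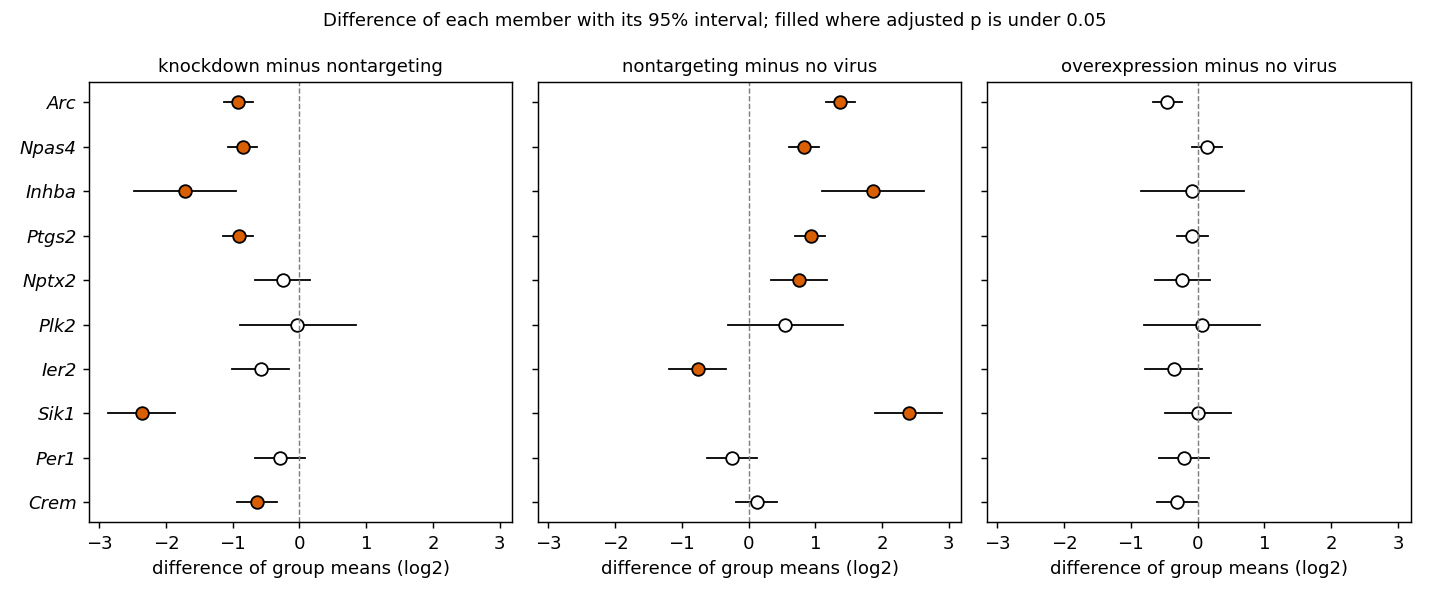
Differences of group means (log2, horizontal axis) with 95% intervals for the 10 members in 3 comparisons, filled where the adjusted p was under 0.05. Sik1 and Inhba lie furthest from 0 in the first 2 panels (-2.36 and -1.72, then 2.4 and 1.87), and all open circles of the overexpression panel lie between -0.45 and 0.14. Npas4 was well above background only in the nontargeting samples, so its level in the other groups is uncertain.

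Knockdown against nontargeting asks what loss of PRR7 does beyond a hairpin virus. The members Arc, Npas4, Inhba, Ptgs2, Sik1 and Crem were lower and none was higher, where 11% of all genes tested were lower and 10.4% were higher. The knockdown samples lay wholly below the nontargeting samples in 8 members, against 20.4% of all genes. The median difference over the 10 members was -0.74, and over all genes -0.02. Npas4, which entered through the nontargeting group alone, had to differ and is part of these counts and of the median. With probes well above background in at least 8 samples, which leaves Npas4 out, 5 members were lower, at a median of -0.63. Of the 20353 genes tested with that filter 2431 were lower. With samples aligned on their medians the medians of the members and of all genes were -0.91 and -0.14, with 412 genes higher and 2705 lower. With the authors' deposited log2 values, over 20657 genes, they were -0.44 and 0.16, with 3593 higher and 982 lower. The normalization used here called 2399 and 2524. Aligned medians called 5 members lower and the deposited values 4. The Cy3 samples alone called 4 members lower and the Cy5 samples alone 8, where 1100 of 22956 genes and 1532 of 22959 were lower.

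Nontargeting against no virus asks what a hairpin lentivirus itself does, and lies across the slides. There were 6 members higher, against 11.5% of all genes. They were Arc by 1.37, Inhba by 1.87, Ptgs2 by 0.93, Nptx2 by 0.76, Sik1 by 2.4, and Npas4. Npas4 was 1.73-fold higher, against no virus values that were not well above background. Without Npas4, which entered through the nontargeting group, they were 5 of 9. Only Ier2 was lower, against 11% of all genes. The nontargeting samples lay wholly above the no virus samples in 6 members, Npas4 among them (17.5% of all genes), and wholly below them in 1 (15%). The members' median was 0.8 and that of all genes 0.03. With the filter of at least 8 samples, which leaves Npas4 out, the members' median was 0.76. With samples aligned on their medians 273 genes were higher and 1195 lower, against 2639 and 2516 here, and the members called were 5 higher and 0 lower.

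Knockdown against no virus set 1 member higher, Arc (4.85% of all genes were), and 2 lower, Ier2 and Crem (5.22% of all genes). For Sik1, Inhba and Ptgs2 the differences were 0.04, 0.15 and 0.02, with 95% intervals whose widest, that of Inhba, ran from -0.62 to 0.91. With samples aligned on their medians those of Sik1 and Inhba were -0.44 and -0.47. Npas4 was not well above background in either group. Crem, at -0.51 (adjusted p = 0.0323, limma), lost its call in 9 of 32 other settings. Among them were leaving out no virus replicate 2 or 3 or knockdown replicate 2 or 4 (adjusted p = 0.0599, 0.0646, 0.056 and 0.0508). The coding Crem probe gave -0.21 and did not pass (adjusted p = 0.347, limma over probes), and the probe furthest along gave -0.82 (adjusted p = 0.00238). With each array as 1 value, Cy3 alone or Cy5 alone, Crem (adjusted p = 0.115, 0.141 and 0.171) and Arc (0.083, 0.0854 and 0.162) did not pass. The calls of all genes went from 1113 genes higher and 1199 lower to 172 and 3792 on aligned medians, where the median of all genes was -0.28. With the authors' deposited log2 values, over 20657 genes, they were 2389 and 508 at a median of 0.21.

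Overexpression against no virus, within a slide, called a single gene of the 22964 tested, the splicing factor gene Eftud2 (1.71, SE 0.17, adjusted p = 0.00679, limma), named here after its value was seen. That is 0.00435% higher and 0% lower. No member passed, at an unadjusted p under 0.05 there were 888 genes and 2 members (Arc and Crem), and the members' median difference was -0.14. In those 2 members the overexpression samples lay wholly below the no virus samples, against 4.52% of all genes. The 95% intervals reached -0.84 for Inhba, -0.49 for Sik1 and -0.31 for Ptgs2 on the lower side. On aligned medians and with the authors' deposited values the median of all genes was -0.15 and -0.16. The genes called were 0, and then 1 higher and 3 lower of 20657 tested.

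Overexpression against nontargeting, which sets PRR7 virus against hairpin virus across slides, called 7 members lower (Arc at -1.82, Npas4, Inhba at -1.94, Ptgs2 at -1.01, Nptx2 at -0.99, Sik1 at -2.39 and Crem at -0.43), against 12.3% of all genes, and none higher (10.5% of all genes). Without Npas4, which entered through the nontargeting group, 6 of 9 were lower. The other Nptx2 probe gave -0.55 and did not pass (adjusted p = 0.0979, limma over probes). The call of Crem, adjusted p = 0.0379 (limma), was lost in 14 of 32 other settings, among them without no virus replicate 2, without nontargeting replicate 1, 2 or 4 and without overexpression replicate 1, 3 or 4 (adjusted p = 0.0511 to 0.0738). With the authors' deposited values 1677 of 20657 genes were higher and 3730 lower, at a median of all genes of -0.21, against 2400 and 2824 here. Knockdown against overexpression called Arc (0.9) and Nptx2 (0.73) higher and Ier2 (-0.98) lower, against 5.75% and 4.68% of all genes. The other Nptx2 probe gave -0.14, the opposite sign (adjusted p = 0.757, limma over probes). The call of Nptx2 was lost in 6 of 32 other settings, among them the mean over its probes (0.3, adjusted p = 0.247, limma) and the fit without overexpression replicate 4 (adjusted p = 0.0558). On aligned medians 43 genes were higher and 305 lower with 0 members called. With the deposited values 5083 and 401 of 20657 genes were (median of all genes 0.36), against 1320 and 1074 here. These comparisons share their control samples with those above and are not further evidence for the same members.

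Other activity-induced genes formed a list of 42, of which 36 were measured. Between knockdown and nontargeting 17 of the 36 were lower (11% of all genes were), 2 were higher (10.4% of all genes) and 17 did not pass, with a median of -0.39. The secreted neurotrophin Bdnf was lower (-2.11, SE 0.14, adjusted p = 1.56e-07), and the matricellular protein Ccn1 likewise (-2.72, SE 0.2, adjusted p = 3.9e-07, both limma). The G protein regulator Rgs2 stood at -1.8 and the nuclear protein Csrnp1 at -1.68, but a further Csrnp1 probe gave -0.23 and did not pass (adjusted p = 0.274, limma). The phosphatase genes Dusp1 (-1.99) and Dusp5 (-0.68) were lower too. The synaptic scaffold gene Homer1 (1.77) and the pentraxin Nptx1 (1.29) went the other way and were higher. Against no virus the nontargeting cultures had 14 of the 36 higher (11.5% of all genes were) and 4 lower (11%), at a median of 0.46, with Bdnf at 1.91, Ccn1 at 2.61 and Homer1 at -1.49. Between overexpression and no virus none of the 36 passed (Bdnf -0.37, adjusted p = 1, limma).

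The partners of Arc and Nptx2 at the synapse are AMPA receptor subunits, pentraxins and their scaffolds. Of 16 measured genes 6 were higher in knockdown than in nontargeting (10.4% of all genes were), none was lower and 10 did not pass (median 0.29). The AMPA receptor subunit genes Gria2 (1.25, SE 0.14), Gria3 (1.16, SE 0.14), Gria4 (0.8, SE 0.13) and Gria1 (0.7, SE 0.18) were higher, as were Nptx1 (1.29) and the auxiliary subunit gene Cacng2 (0.51). A further Gria4 probe gave 0.5 and did not pass (adjusted p = 0.0934, limma). Against no virus the nontargeting cultures had 6 of the 16 lower (11% of all genes were) and none higher, with Gria2 at -1.13 and the pentraxin receptor gene Nptxr at -0.87.

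Of 34 measured genes that carry calcium signals to CREB, 5 were higher in knockdown than in nontargeting and 4 lower, shares near the 10.4% and 11% of all genes, with a median of -0.01. The transcription factor gene Srf gave 0.87 with the tested probe and 0.05 with a further probe that did not pass. Creb1 itself was lower (-0.35, SE 0.12, adjusted p = 0.0414, limma), as were the calcium channel gene Cacna1c (-0.51) and the transcription factor gene Nfatc4 (-0.52). Against no virus 6 of the 34 were higher in nontargeting (11.5% of all genes were) and 6 lower (11%).

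The pathways in which single members act showed few calls between knockdown and nontargeting, where 10.4% of all genes were higher and 11% lower. Of 13 measured genes of the activin pathway, the activin antagonist Fst was lower in knockdown than in nontargeting (-1.14, SE 0.32, adjusted p = 0.0202, limma) and the signal transducer Smad2 higher (0.76, SE 0.15, adjusted p = 0.00187). Of 6 genes of the prostaglandin pathway of Ptgs2, the receptor gene Ptger3 was lower (-0.6) and the synthase gene Ptges2 higher (1.02). Of 14 clock partners of Per1, Bhlhe41 was lower (-0.86) and Per3 higher (0.4, with 0.18 and no call for a further probe). Of 6 relatives of Plk2 and Ier2, Ier5l (-1.2) and Plk3 (-1.06) were lower, with -0.3 and no call for a further Plk3 probe. Of 6 partners or targets of Npas4, a list that includes the members Nptx2 and Plk2, Bdnf and Nr4a1 (-2.53) were lower and none was higher.

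**Figure D4:**
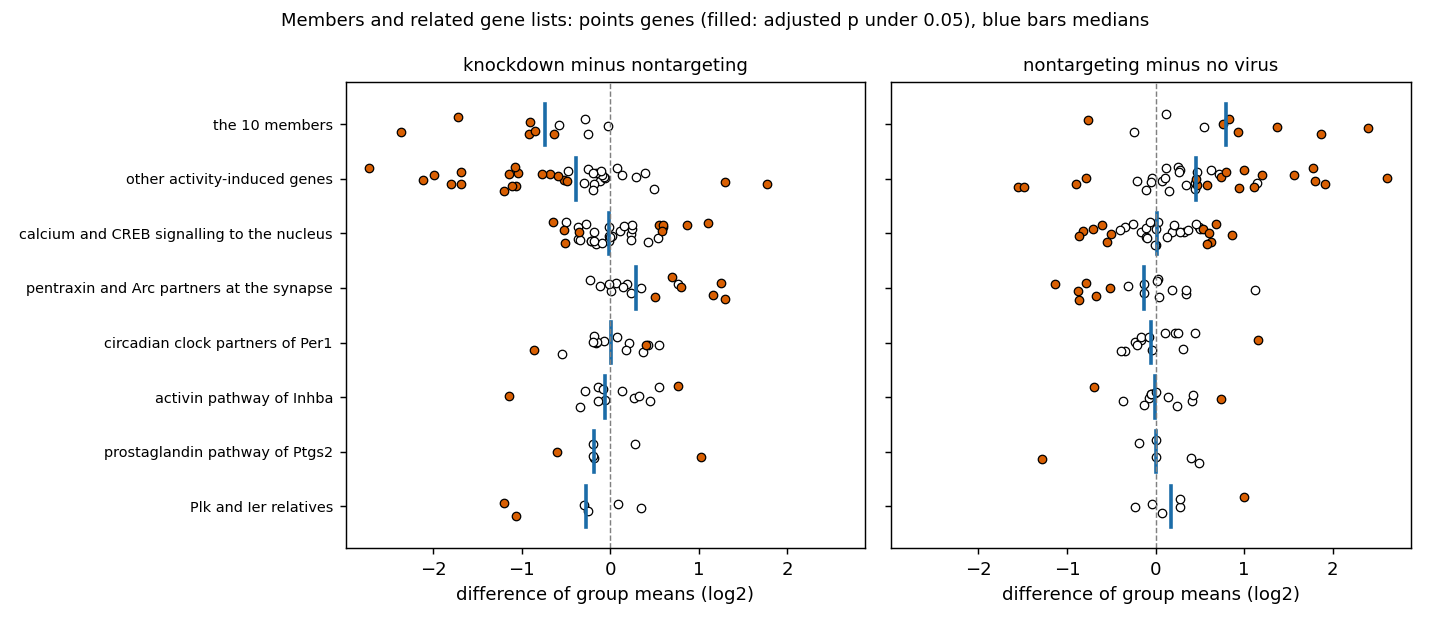
Differences of group means (log2, horizontal axis) of the members and of 7 related gene lists (rows), with a point for each gene, filled where the adjusted p was under 0.05, and a blue bar for the median. The medians of the members, Npas4 included, lie at -0.74 and 0.8, and those of the other activity-induced genes at -0.39 and 0.46.

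Some markers of other cells differed between the nontargeting group and the others, and their part in the results was not tested. Of all genes 10.4% were higher and 11% lower in knockdown than in nontargeting. In nontargeting 11.5% were higher and 11% lower than without virus, and 12.3% were lower with overexpression than in nontargeting. Of 7 interneuron markers 4 were higher in knockdown than in nontargeting and 5 lower in nontargeting than without virus, with the transporter gene Slc32a1 at 1.1 and -2.04. The mean level of the 7 ran from 9.58 to 9.83 in the nontargeting samples, 10.13 to 10.43 with knockdown, 10.5 to 10.83 with overexpression and 10.49 to 11.07 without virus. Of 9 astrocyte markers 3 were higher and 1 lower in knockdown than in nontargeting, with list means of 12.06 to 12.12 (KD), 11.76 to 12.08 (NT), 12.31 to 12.63 (OE) and 11.77 to 12.45 (NO). Of 9 markers of the oligodendrocyte lineage 3 were higher in knockdown than in nontargeting, with list means of 9.01 to 9.11 (KD), 8.61 to 8.78 (NT), 8.39 to 9.09 (OE) and 8.97 to 9.17 (NO). None of the markers in these 3 lists was below background in all samples. Of 9 general neuron markers 1, the neurofilament gene Nefl (-0.68), was lower in knockdown than in nontargeting, with list means of 13.79 to 13.9 (KD), 13.44 to 14 (NT), 13.83 to 13.89 (OE) and 13.73 to 13.92 (NO). Of 5 excitatory neuron markers none passed between knockdown and nontargeting, 3 were higher in nontargeting than without virus and 3 were lower with overexpression than in nontargeting, with list means of 10.71 to 10.95 (KD), 10.18 to 10.88 (NT), 10.47 to 10.59 (OE) and 10.29 to 10.51 (NO). Of 6 microglial and 6 fibroblast or vascular markers measured none passed between knockdown and nontargeting. Their list means ran from 7.96 to 8.34 and from 8.12 to 8.63 over all samples.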

How the data were processed

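Total RNA of 16 cultures was read on 8 Agilent 2-colour arrays. The deposited intensity values are mean spot signals and median local backgrounds, per the file headers, from Agilent Feature Extraction 10.7.3.1 (per the submitters' processing notes), with no normalization. The authors' deposited matrix of log2 values holds the median signal minus background, centred on each column's median, as regression on the scanner values showed (slope of 1). Each sample's own dye was used. Backgrounds were corrected by normexp (offset 50), dyes balanced by loess (fitted without control spots), and arrays aligned by Aquantile in limma 3.58.1 (statmod 1.5.0, R 4.3.3). Outlier-flagged spots were left out. Probes well above background in at least 4 samples, with at least 12 values and 2 per group, were kept (27294 of 41012), and the probe with the highest mean stood for a gene. Probes were named through RefSeq accessions (17512) or symbols (3095), and otherwise by the array.

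One limma model across all genes had group and dye as terms and a random array block (within-array correlation 0.569, 11 residual and 4.05 prior degrees of freedom). It was tested on simulated data. Comparisons of 2 groups used Benjamini-Hochberg adjustment over 22964 genes, and over 20657 with the authors' deposited values. Alternatives covered 32 settings of background, normalization, filter, probe, block, dye and samples. The members, lists and tests were chosen with earlier results of these data known. All members are named, with up to 4 genes per list by the smallest p between knockdown and nontargeting, further list genes or markers as examples past the test, chosen after their values were seen, and Eftud2. A few of the genes chosen in this way are not reported here.

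Replicate numbers were checked for pairing by correlating same-numbered samples' deviations from their group means. Between knockdown and nontargeting the correlations ran from 0.134 to 0.257, all over 0.1, and so for knockdown with no virus (0.164 to 0.265) and with overexpression (0.138 to 0.263). The main tests did not pair the samples. The numbers entered as pairing only in an alternative fit with the replicate number as a block, on the data alone. The labels name no shared dissection, and the numbers also hold the dye. With the dye removed the 3 ranges were 0.0619 to 0.146, 0.025 to 0.125 and 0.0341 to 0.219, and each then began below 0.1. Promoter sequences are RefSeq's on GRCr8, and probe sequences are those of the scanner files. Plots used matplotlib 3.10.9 (Python 3.11.15).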

Additional observations from a re-analysis of the deposited data

Results flagged for a closer look

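Of the 40 groups of 4 samples of the tested probes, 1 held a sample that stood far from the others. Npas4 in knockdown replicate 3 was at 6.83 against 6.85 to 6.86 in the other knockdown samples, a gap that exceeds Dixon's critical value as a share of the group's range. None of these samples was well above background for this probe. Chance flags about 1 in 20 groups.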

How the results depend on the processing

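Signal over background limits Npas4, which the nontargeting samples alone raise above background, and the dimmest Ptgs2 probe. Arc, Ptgs2 and Sik1 passed between knockdown and nontargeting in all 32 settings, with differences from -1.38 to -0.71, -1.64 to -0.86 and -2.7 to -2.25. Npas4 was tested in 30 of the 32 and missed the threshold in 1 of them (samples aligned on their medians, adjusted p = 0.0508), and over the 32 Inhba missed it in 1 and Crem in 2. Below, counts and differences are given by setting, and the cause of each move was not tested.

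With samples aligned on their medians after loess, 3117 genes were called between knockdown and nontargeting, 0 between overexpression and no virus, 1468 between nontargeting and no virus, 3964 between knockdown and no virus, 1111 between overexpression and nontargeting and 348 between knockdown and overexpression. The members called lower in nontargeting than without virus, higher in knockdown than without virus, and higher or lower in knockdown than in overexpression were then 0. In these directions 1195, 172, 43 and 305 of the 22964 genes were called. Differences that changed sign were, for overexpression minus no virus, Plk2 at -0.27 and Sik1 at -0.22, and for nontargeting minus no virus, Crem at -0.13. For knockdown minus no virus they were Arc at -0.21, Npas4 at 0.51, Inhba at -0.47, Nptx2 at -0.18, Plk2 at -0.15 and Sik1 at -0.44. For knockdown minus overexpression they were Npas4 at 0.08, Inhba at -0.11 and Sik1 at -0.23. Among these Arc was the only called value.

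With the authors' deposited log2 values 4 genes were called between overexpression and no virus and 5484 between knockdown and overexpression. Members were then 2 higher and 1 lower in knockdown than without virus and 4 higher in knockdown than in overexpression. Of the 20657 genes tested with these values, 2389 were higher and 508 lower in the first of these comparisons and 5083 higher in the second. Uncalled differences that changed sign were Plk2 at 0.24 (knockdown minus nontargeting) and -0.06 (overexpression minus no virus), Sik1 at -0.1 (overexpression minus no virus), Per1 at -0.03 (overexpression minus nontargeting) and Crem at 0.11 (knockdown minus overexpression). With Agilent's processed signals 2 genes were called between overexpression and no virus, and 1 member was lower in knockdown than without virus, as were 1206 of the 22964 genes.

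With the Cy3 samples alone the calls were 2249 (knockdown and nontargeting), 0 (overexpression and no virus), 2458 (nontargeting and no virus), 597 (knockdown and no virus), 2020 (overexpression and nontargeting) and 406 (knockdown and overexpression). The members were 0 higher and 1 lower in knockdown than without virus and 1 higher in knockdown than in overexpression. Of all genes 285 were higher and 312 lower of 22949 in the first of these comparisons, and 221 higher of 22941 in the second. Uncalled signs turned for Plk2 (0.13 in knockdown minus nontargeting, 0.06 in overexpression minus nontargeting), Inhba (0.13 in overexpression minus no virus) and Sik1 (-0.09 in knockdown minus overexpression). With the Cy5 samples alone the calls were 3062, 0, 2894, 726 and 1241 in the same comparisons without overexpression and nontargeting. Members were 0 higher in knockdown than without virus and 1 higher in knockdown than in overexpression, where 347 and 719 of the 22964 genes were higher. Uncalled signs turned for Plk2 (-0.58) and Sik1 (-0.31) in overexpression minus no virus, Ptgs2 (-0.01) and Sik1 (-0.15) in knockdown minus no virus, and Per1 (-0.13) in overexpression minus nontargeting.

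Without the array block the calls were 8294, 32, 9131, 5953, 9161 and 6170 in the order of the Cy3 counts above. Members were then 1 lower in overexpression than without virus, 2 higher in knockdown than without virus and 1 higher in overexpression than in nontargeting. Of the 22964 genes tested 16, 2953 and 4058 were called in these 3 directions. With each array as 1 value 0 genes were called between overexpression and no virus, 1026 between knockdown and no virus and 1052 between knockdown and overexpression. Members were then 0 higher and 1 lower in knockdown than without virus and 1 higher in knockdown than in overexpression. In these directions 497, 529 and 574 of the 22964 genes were called. With only the groups compared in the fit, 0 genes were called between overexpression and no virus, 3255 between nontargeting and no virus and 4118 between knockdown and overexpression. The mean over a gene's probes gave 0 genes between overexpression and no virus and 1 member higher in knockdown than in overexpression (1182 of the 22964 genes were). Without the dye term 0 members were lower in nontargeting than without virus (2601 of the 22964 genes were).

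Leaving out each sample in turn gave 0 to 2 genes between overexpression and no virus, 1 to 3 members lower in knockdown than without virus and 1 to 2 members higher in knockdown than in overexpression. Of the 22964 genes 881 to 1420 were lower in knockdown than without virus and 1017 to 1619 higher in knockdown than in overexpression. Uncalled differences near 0 changed sign: Plk2 ran from -0.18 to 0.09 in knockdown minus nontargeting. In overexpression minus no virus Inhba ran from -0.22 to 0.09, Plk2 from -0.19 to 0.3 and Sik1 from -0.12 to 0.14. In knockdown minus no virus Npas4 ran from -0.04 to 0.01, Ptgs2 from -0.02 to 0.05 and Sik1 from -0.08 to 0.18. Per1 ran from -0.04 to 0.09 in overexpression minus nontargeting and Sik1 from -0.06 to 0.16 in knockdown minus overexpression. The fit with the replicate number as a block, which pairs the samples, called 7 members lower between knockdown and nontargeting (Ier2 joined) and 3 lower between knockdown and no virus (Per1 joined), and changed no other member's call. In that fit 2961 and 1496 of the 22964 genes were lower in these comparisons.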

Other observations

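Other activity-induced genes were also compared across the slides. Of the 36 measured, 7 were lower (5.22% of all genes were) and 2 higher (4.85%) in knockdown than without virus, with a median of -0.04. Between overexpression and nontargeting 18 were lower (12.3% of all genes) and 4 higher (10.5%), with a median of -0.51. The transcription factor gene Atf3 had similar means with knockdown (10.51) and nontargeting (10.57) and higher means with overexpression (12.15) and without virus (12.12). Its difference between knockdown and nontargeting was -0.06 (SE 0.28, adjusted p = 0.911, limma), and between nontargeting and no virus -1.55 (SE 0.34, adjusted p = 0.00534, limma). It was picked after its values were seen.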
